A study of Drosophila melanogaster with 18 samples.

Results

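The 200 sites described here are adenosines on the autosomes that were read as G at a low share in every 4EHP-ADAR library and in no mutant-ADAR library of the larval fat body of Drosophila melanogaster. They were chosen from the deposited TRIBE table by their reads. Each site had at least 20 A and G reads in all 6 libraries, at least 1 G read in each of the 3 4EHP-ADAR libraries, no G read in the 3 mutant-ADAR libraries and a pooled 4EHP-ADAR G share under 5%. The table lists 91502 sites, of which 58789 are autosomal and reach the read minimum, so the 200 sites are 0.340% of those. The G reads of both constructs chose the sites, so the difference between the constructs is given below as a description with no test.

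4EHP is a relative of the cap-binding protein eIF4E. It binds the cap at the 5′ end of an mRNA but does not recruit the scaffold eIF4G, and it is best known for repressing the translation of particular mRNAs. TRIBE marks the RNAs that a protein touches by fusing that protein to the catalytic domain of ADAR, which deaminates adenosine to inosine, and sequencing machines read inosine as G. In the fly, the fat body stores fat and protein, secretes much of the haemolymph proteome and plays the part of liver and adipose tissue.

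The TRIBE libraries came from larvae in which the dcg-Gal4 driver, active in the fat body, expressed uas-4EHP-adar (3 libraries) or uas-4EHPmutant-adar (3 libraries), whose change in 4EHP impairs cap binding while the ADAR part is the same. The ADAR domain carries a mutation that makes it hyperactive, and both transgenes sit at the same landing site on the second chromosome. The host genes were also followed in 12 RNA-seq libraries that played no part in the choice, namely 4EHP RNAi with its dcg-Gal4/+ control and NELF-E RNAi with its lacZ RNAi control, all driven by dcg-Gal4 and with 3 libraries a group. All 18 libraries were made from the fat bodies of larvae in the third instar. By the study's methods, each RNA-seq replicate was a biological one of fat bodies pooled from male larvae. NELF-E RNAi crosses were kept cooler than all other crosses because the larvae died at higher temperatures. The methods name no exception for their lacZ RNAi control, but an eclosion assay in the supplement kept lacZ RNAi flies at the lower temperature too. In that assay NELF-E RNAi delayed development. The temperature of the lacZ RNAi libraries is thus not certain. If it differed, temperature and RNAi cannot be told apart in that comparison, and neither can the delay and RNAi.

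In the RNA-seq libraries, 59919651 to 173606468 reads were assigned to genes. The 7 fat body markers, such as the larval serum proteins, were above 1 CPM (reads scaled to a common library total) in all 12 libraries, with a summed level of 145917 to 370181 CPM. Transcripts of the testis were also present. The 4 testis markers Mst87F, dj, Mst98Ca and bam summed to 677 to 1153 CPM in most libraries but to 17.0 CPM in control replicate 3, 152 CPM in lacZ RNAi replicate 2 and 335 CPM in lacZ RNAi replicate 3. Sites in Mst87F and dj were read deeply in the TRIBE libraries too, with up to 1610 and 1523 reads at one site. The salivary gland gene Sgs7 set 4EHP-ADAR library 3 apart, with up to 2075 reads at one site there, against 35 and 39 in the other 4EHP-ADAR libraries and 49 to 153 in the mutant libraries. Gut markers ranged from 0.211 to 518 CPM. In the 4EHP RNAi set they summed to 0.483, 0.808 and 9.82 CPM in the controls against 518, 249 and 31.5 CPM with 4EHP RNAi. In deposited CPM, muscle and haemocyte markers were also higher in every 4EHP RNAi library than in any control, and fat body markers lower. Salivary gland and testis markers overlapped between those groups. Salivary gland markers summed to 5.42 to 581 CPM, haemocyte markers to 6.79 to 33.1 CPM and muscle markers to 6.01 to 96.3 CPM. The part of these other tissues in the results below was not tested.

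Over all 200 sites, G made up 480 of 44952 reads (1.07%) in 4EHP-ADAR library 1, 418 of 38311 reads (1.09%) in library 2 and 552 of 39110 reads (1.41%) in library 3. The mean of the 3 libraries was 1.19% ± 0.192 (SD, n = 3). By the choice of sites, the mutant libraries had no G among 83565 reads, which allows a share of up to 0.00359% over the sites pooled. The pooled share of single sites ran from 0.0966% to 4.97% with a median of 1.46%, and 65 sites were under 1%, 62 between 1% and 2%, and 73 at 2% or above. Library 3 had the highest share at 90 sites, library 2 at 56 and library 1 at 54, so the 3 libraries did not rank alike from site to site. Library 3 is also the one with many Sgs7 reads.

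These shares rest on few reads. The median site had 6 G reads among 445 reads in the 4EHP-ADAR libraries together, and 307.5 reads in the mutant libraries together. Of the 200 sites, 92 had 3 to 5 G reads in all and 30 had exactly 1 G read in each 4EHP-ADAR library. At the other end, 41 sites had at least 10 G reads and 64 had at least 2 in each library. At 149 sites the 4EHP-ADAR share lay above the share that 0 G reads in the mutant libraries of that site still allows (3 reads of the total), and at 51 sites it lay at or below it. At those 51 sites the depth of the mutant libraries could not show a share as low as that with 4EHP-ADAR. Intervals and limits given here are for counting error only, as reads of the same amplified molecule are not independent.

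**Figure D1:**
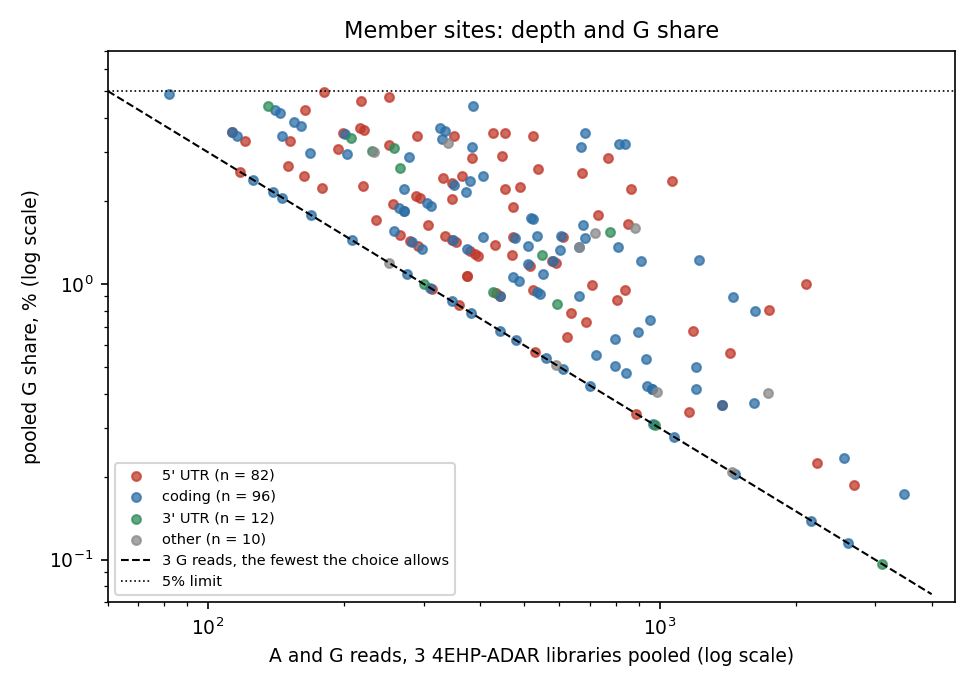
Each point is one of the 200 sites; the x axis gives its reads (A plus G, 4EHP-ADAR libraries pooled) and the y axis its pooled G share in percent, both on log scales, coloured by gene part. The dashed line marks 3 G reads, the fewest the choice allows, and the dotted line the 5% limit; sites of low share occur only at high depth because of the lower line.

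Just inside the 5% limit were sites in wrd at 4.76%, CG7943 at 4.88% and CG18473 at 4.97%, and just outside it were sites in CG44249 at 5.00%, Cyp9f3 at 5.30% and pths at 5.52%. In all, 60 autosomal sites had the same pattern of libraries with a share of 5% or more, and 24 more met the pattern and the share with under 20 reads in a library.

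The site with the most G reads lay in CG4752 (chromosome 2R, position 22478521, dm6, plus strand, coding exon). It had 20 of 456 reads as G in 4EHP-ADAR library 1, 1 of 164 in library 2 and 6 of 220 in library 3, and none of 472 mutant reads. Most of its G reads thus came from one library. The site in CG7763 (2R, 11414556, plus strand, coding) was more even, with 8 of 373, 9 of 234 and 9 of 205 reads as G, a pooled share of 3.20% (95% Wilson interval 2.19 to 4.65%) against none of 496 mutant reads. CG13868 followed with a site in its 5′ UTR (2R, 20313225, minus strand), where 6 of 435, 11 of 312 and 8 of 315 reads were G and none of 730 mutant reads was.

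Sites with many G reads lay in genes of several metabolic and membrane functions. Tmlh, named for trimethyllysine hydroxylase of carnitine synthesis, held a coding site (3R, 20407689, minus strand) with 7 of 439, 4 of 70 and 13 of 175 reads as G. Dera, the deoxyribose-phosphate aldolase, held a site in its 5′ UTR (2R, 12425684, plus strand) with 10 of 713, 2 of 708 and 9 of 682 reads as G, and with 1311 mutant reads it was among the best covered. Tspo, the translocator protein of the outer mitochondrial membrane, held one in its 5′ UTR (2L, 559696, plus strand) with 2 of 233, 7 of 287 and 10 of 344 reads as G. The shares at the 3 sites differed between libraries by several fold, and library 2 was the lowest at Dera but not at Tmlh or Tspo.

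The gap junction protein gene Inx3 carried a site in its 5′ UTR (3R, 28857323, minus strand) with 5 of 215, 7 of 157 and 6 of 152 reads as G, one of the more even sites. The 5′ UTR site of pst, a gene of virus resistance (3L, 7360067, minus strand), had 5 of 273, 2 of 267 and 15 of 229 reads as G. The cytochrome P450 gene Cyp6a23 had a coding site (2R, 14875861, plus strand) with 5 of 157, 2 of 41 and 10 of 188 reads as G. At both of these, library 3 gave the largest number of G reads. Fur1, a furin-type proprotein convertase gene, had a 5′ UTR site (3R, 25472865, minus strand) with 6 of 190, 7 of 106 and 2 of 131 reads as G.

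The sites with the highest shares were shallow. At CG18473 (3R, 9363330, plus strand, 5′ UTR) 3 of 73, 3 of 49 and 3 of 59 reads were G, and the pooled 4.97% had an interval of 2.64 to 9.18%. In wrd, which encodes a B′ regulatory subunit of the phosphatase PP2A, a 5′ UTR site (3R, 18167858, plus strand) had 3 of 124, 7 of 67 and 2 of 61 reads as G. In Zasp52, a gene of the muscle Z-disc, the share at a 5′ UTR site (2R, 15816915, minus strand) was 1.71%, 1.72% and 16.3%, so that library 3 set the pooled value of 4.59%. The 10 sites of highest share had 82 to 386 reads in the 4EHP-ADAR libraries, and 4 of them were in a 5′ UTR.

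The 9 sites under 0.25% were the deepest kind and had 3 to 6 G reads. The lowest lay in the 3′ UTR of bol (3L, 9102146), which encodes an RNA-binding protein of the male germ line, with 1 of 943, 1 of 1050 and 1 of 1113 reads as G, a share of 0.0966% (interval 0.0329 to 0.284%). Its 1270 mutant reads allow up to 0.236%. The site in the 5′ UTR of the ribosomal protein gene RpS26 (2L, 18443204, minus strand) had 1 of 845, 2 of 923 and 2 of 923 reads as G, and its 2533 mutant reads allow up to 0.118%. Of these 9 sites, those in RpS26 and Syp alone had a share above their mutant limit.

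The 200 sites fell in 197 genes, as 5 sites were listed under more than 1 gene. Most genes, 188, held a single site, 8 held 2 and 1 held 3, so 19 sites lay in genes with several. The gene with 3 was koi, which encodes a SUN-domain protein of the nuclear envelope. All 3 lay in its 5′ UTR on chromosome 2R (plus strand; the gene spans 6811019 to 6818199), at 6811048, 6811114 and 6811133. The first had 2 of 42, 1 of 42 and 1 of 37 reads as G, the second 2 of 225, 1 of 187 and 1 of 210, and the third 7 of 242, 7 of 206 and 3 of 226. Pooled over the 3 sites, the shares were 2.16%, 2.07% and 1.06% against 0 of 415, 0 of 237 and 0 of 311 reads with the mutant. At the 11 other listed sites of koi the G reads came from 1 4EHP-ADAR library each, with pooled shares of 0.459%, 0.155% and 0.153%.

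In CG18473 both sites lay in the 5′ UTR, 18 bases apart (9363330 and 9363348), with pooled shares of 2.34%, 3.03% and 3.47%. In CG7083 the sites at 8340931 and 8340956 of 3L were 25 bases apart in the 5′ UTR and had 1.57%, 2.42% and 2.75%. Both genes shared the same order of libraries, and each kept 0 G reads in every mutant library. CG7083 also had a site in its 3′ UTR read as G in all 243 4EHP-ADAR reads and in 75.8% of 161 mutant reads. G was thus frequent there with both constructs, and its cause was not tested.

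In CG11313 a 5′ UTR site and a coding site lay 21 bases apart at the start of the gene (3R, 30731163 and 30731142, minus strand), and together had 8 of 465, 7 of 334 and 12 of 386 reads as G. In Glg1, named for a Golgi glycoprotein, a 5′ UTR site at 21507474 and a coding site at 21498357 of 3L had 2.37%, 2.24% and 2.19% together, the most even of the 8 genes plotted. Glg1 also carried a 3′ UTR site at 49.8% with 4EHP-ADAR and 41.4% with the mutant. SPE, the protease that activates Spätzle in the Toll pathway, had 2 coding sites with exactly 1 G read in each library. Of other listed sites of SPE, one had 10.2% G reads with 4EHP-ADAR and 0.893% with the mutant, and another 78.8% and 76.8%. Tbc1d22, named for the TBC domain of Rab GTPase-activating proteins, and Cals, the calsyntenin gene on chromosome 4, had 2 coding sites each and pooled shares of 0.615% to 1.41% and 0.660% to 0.817%.

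**Figure D2:**
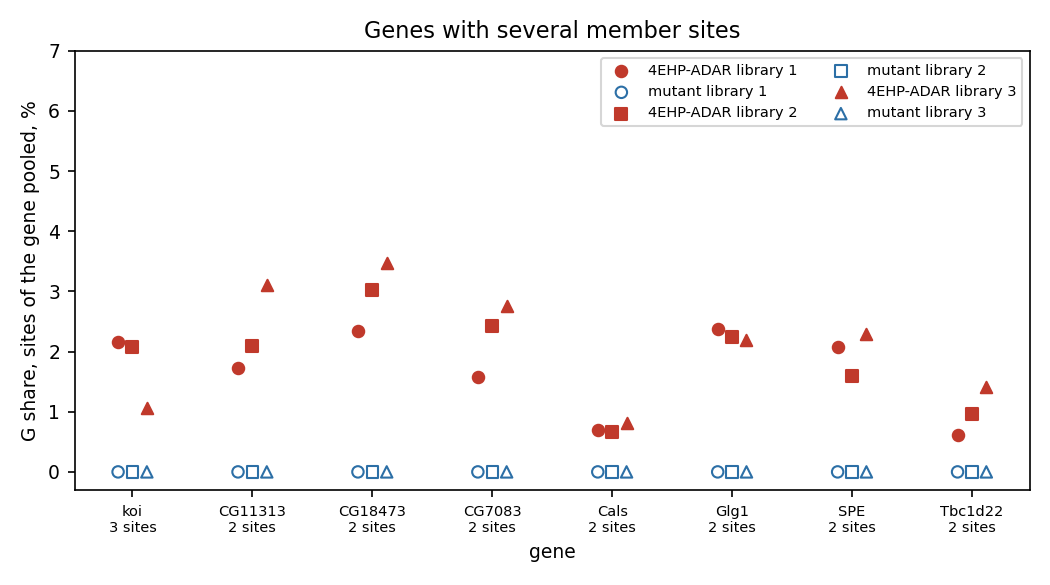
For 8 genes with several sites, the y axis gives the G share in percent over those sites pooled, in each 4EHP-ADAR library (filled) and each mutant library (open). The 4EHP-ADAR values lie between 0.615% and 3.47%, and the mutant values are 0 because the sites were chosen so; CG11313 spans the widest range, 1.72% to 3.11%, and Glg1 and Cals the narrowest.

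Most of the 200 sites had no other of them close by. The counts of near neighbours were not set against those of other listed sites, so they do not show whether the sites cluster. Another of the 200 sites lay within 100 bases on the same strand at 13 sites and within 30 bases at 8. Any other autosomal site with a G read in every 4EHP-ADAR library lay within 100 bases at 28 sites (14.0%). The sites were spread over chromosome arms 2R (62), 3R (62), 3L (40), 2L (30) and chromosome 4 (6), and over the plus (103) and minus strands (97).

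A property that the choice did not use was the place in the transcript. Of the 200 sites, 82 (41.0%, 95% Wilson interval 34.4 to 47.9%) lay in a 5′ UTR, 96 (48.0%) in coding exons, 12 (6.00%) in a 3′ UTR, 3 in introns and 2 in noncoding exons, and 5 had a gene ID that the annotation does not hold. Among the 56696 other autosomal sites of low share that reach the read minimum, 11.4% lay in a 5′ UTR, 72.5% in coding exons and 11.9% in a 3′ UTR. The median spliced distance from the nearest annotated transcript start of the gene was 194.5 bases for the 192 sites that have one and 973 bases for the other low-share sites. Under 100 bases lay 67 of the 192 (34.9%), against 7.10% of the others. Sites are not replicates of each other and several share a gene, so these shares are given with no test.

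The share of 5′ UTR sites rose with the number of 4EHP-ADAR libraries that held a G read. It was 10.7% of 51738 low-share sites with G in 1 4EHP-ADAR library and no mutant library, 17.7% of 2437 with G in 2, and 41.0% of the 200 with G in all 3. Sites with G in all 3 4EHP-ADAR libraries and also in the mutant libraries had values in between, namely 36.0% of 247 with 1 mutant library, 29.1% of 172 with 2 and 21.5% of 121 with 3. The intervals of the 200 sites and of those with 1 mutant library overlap, as the latter run from 30.3 to 42.2%. The 60 sites with the same pattern at 5% or more had 36.7% in a 5′ UTR. The 200 sites were ahead of the other low-share sites at every depth, with 42.6% against 10.7% under 500 reads over the 6 libraries, 46.7% against 11.5% from 500 and under 1000, 32.0% against 11.4% from 1000 and under 2000 and 38.1% against 14.7% at 2000 or more.

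**Figure D3:**
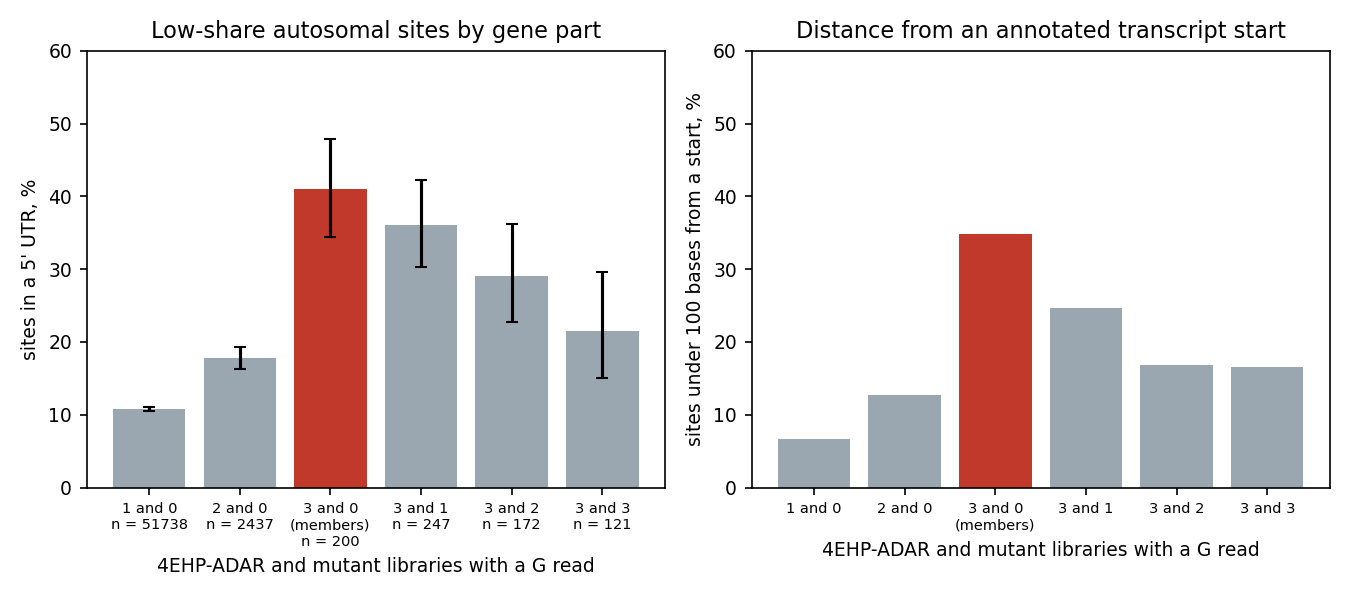
Left, the percent of low-share autosomal sites in a 5′ UTR by the number of 4EHP-ADAR and mutant libraries with a G read, with 95% Wilson intervals and the number of sites under each bar. Right, the percent within 100 bases of an annotated transcript start; in both, the bar of the 200 sites (3 and 0) is the tallest, at 41.0% and 34.9%, next to 36.0% and 24.7% for 3 and 1.

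In the mutant libraries too, G reads were more frequent in UTRs than in coding exons. Over the other low-share sites, the G share in 5′ UTRs was 0.0586%, 0.0368% and 0.0433% in the 3 mutant libraries, which is 2.32, 1.97 and 2.09 times their share at coding sites, and in 3′ UTRs it was 1.89, 1.84 and 2.00 times that share. The 5′ UTR ratios in the 4EHP-ADAR libraries were 1.18, 1.09 and 1.32 and those of 3′ UTRs 1.08, 1.17 and 1.35, but there every listed site has at least 1 G read, which lifts both shares. The part in the 5′ UTR result of what raised G reads in the mutant 5′ UTRs was not tested.

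Within the 200 sites, those in a 5′ UTR had a median share of 1.67% and a median of 394 reads, those in coding exons 1.36% and 499.5 reads, and those in a 3′ UTR 1.41% and 364 reads. Pooled over 5′ UTR sites the 3 libraries had 1.19%, 1.41% and 1.77%, and over coding sites 1.03%, 0.913% and 1.27%. Of the 96 coding sites, 29 lay at the first, 38 at the second and 29 at the third base of a codon, or 30.2%, 39.6% and 30.2%. Among the other low-share sites these bases had 33.5%, 44.7% and 21.7%.

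How many sites of this pattern an error per read alone would give depends on the rate that is assumed. Every listed site holds a G read in at least 1 4EHP-ADAR library, so the expectation was computed given that read, with the same error at each read and independent libraries. The reads at the 58789 sites then give 8.58 sites of the pattern at an error of 0.01% per read, 57.8 at 0.0281%, which is the G share of the mutant libraries over all low-share autosomal sites, and 424 at 0.1%, beside the 200 found. For G in 2 4EHP-ADAR libraries and no mutant library, the expectation was 2282.5 at the mutant share and 5322 at 0.1%, beside 2437 found. The authors' choice of sites by comparing the constructs is not part of these sums, and the table gives no C or T read at any site, so it holds no direct measure of error. At 0.1% error, sites of the pattern would be expected in a 5′ UTR at 12.2% and within 100 bases of a start at 8.71%, and at the mutant share at 13.2% and 9.80%, against the 41.0% and 34.9% above. These percentages hold only for a rate that is equal in all gene parts. In the mutant libraries the G share in 5′ UTRs was 1.97 to 2.32 times that at coding sites. A higher rate in 5′ UTRs would raise the expected 5′ UTR percentage, and that value was not computed.

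The recurrence of G reads from library to library was described by picking sites in all but 1 of the 4EHP-ADAR libraries. Sites of low share with G reads in 4EHP-ADAR libraries 2 and 3 and none in the mutant libraries numbered 1032, and library 1 had a G read at 18.7% of them. For library 2 the value was 17.0% of 1165 sites and for library 3 it was 25.2% of 806. An error of 0.1% per read would give 18.6%, 16.8% and 19.1%, the G share of the mutant libraries 5.88%, 5.34% and 6.13%, and the share of each site in the other libraries 73.8%, 71.5% and 72.7%. Observed recurrence was close to the value at 0.1% error for libraries 1 and 2 and above it for library 3. It was above the value at the mutant share for each library. It was far below that of an equal share in all libraries, though shares taken from sites picked for G reads are too high. The 0.1% rate is an assumed one and these same libraries chose the sites, so the values are a description. The cause of the G reads was not tested.

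**Figure D4:**
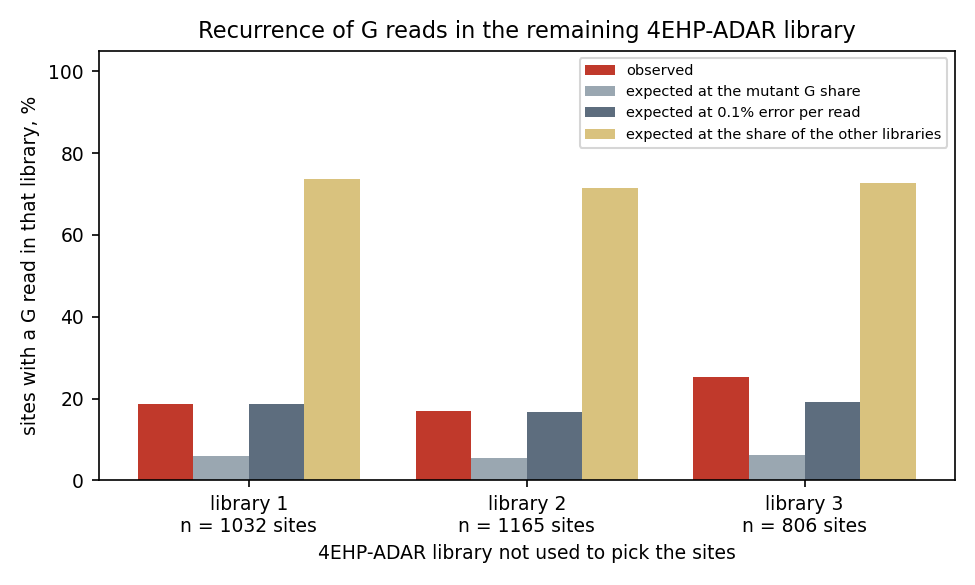
For each 4EHP-ADAR library in turn, the percent of sites with a G read in it among low-share sites picked by G reads in the other 4EHP-ADAR libraries and none in the mutant libraries. Red bars are the observed 18.7%, 17.0% and 25.2%, beside the percent expected at the mutant G share, at 0.1% error per read and at the share in the other libraries.

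Of the 740 low-share autosomal sites with G in all 3 4EHP-ADAR libraries, 200 had none in the mutant libraries. If the G reads of each site fell on the 6 libraries in proportion to their reads, 21.0 would have none. The authors kept sites by comparing the constructs, so an excess is built into the table and no test was made.

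As 0.340% of the autosomal sites were chosen, a gene with few listed sites would seldom hold one. None of the 200 lay in eIF4EHP (the gene of 4EHP itself, 11 listed sites that reach the minimum), Nelf-E (6) and Nelf-A (5), which encode subunits of the negative elongation factor, crc (6), the fly ATF4, its target Thor (6), the kinases PEK (24) and Gcn2 (4), or CG18132 (2). Of the 64 listed sites of these genes, 5 had G in every 4EHP-ADAR library, namely 2 in Nelf-E and 1 each in Nelf-A, eIF4EHP and CG18132, and were left out for their share or for G reads in the mutant. Of all 7014 genes with a listed autosomal site that reaches the minimum, 197 (2.81%) held one of the 200. Among gene lists of the tissue, cytosolic ribosome genes held a site in 2 of 93 (RpS26 and RpS30), translation initiation and elongation factors in 2 of 34 (eIF4G1 and pAbp), fat body storage proteins in 1 of 9 (apolpp) and serine, one-carbon and ATF4 target genes in 1 of 12 (aay). Lists of secretory chaperones, lipid metabolism, glycolysis, the vacuolar proton pump and heat shock proteins held none. The eIF4G1 site was in its 5′ UTR (chromosome 4, 930527, minus strand), with 6 of 285, 2 of 98 and 3 of 108 reads as G. That of apolpp, the gene of the main lipoprotein of the haemolymph, was in the 3′ UTR (chromosome 4, 1076482, plus strand), with 1 of 140, 2 of 43 and 4 of 48.

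The host genes were not only abundant ones. Per kilobase of exon, the 176 host genes with a length and a mean of at least 5 CPM had a median percentile of 62.0 in the control libraries, among all 8193 such genes. They ranged from 0.531 (Zasp52) to 1378 CPM per kb (RpS30), and 56 of them (31.8%) were above the upper quartile of all genes while 68 were below the median. In lacZ RNAi libraries the median level of the host genes was 15.9 CPM per kb, beside 11.7 CPM per kb over all genes. The gene with the most sites, koi, stood at the 31.8th percentile in the controls with 6.97 CPM per kb, and CG11313 at the 86.2nd with 56.3 CPM per kb. Read depth at a site sets whether a site of low share can be seen, so a bias towards expressed genes is part of the choice.

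The drop of the testis markers in control replicate 3 was seen in few host genes. In control replicate 3, 10 of 187 host genes (5.35%) were more than 10 times below their level in both other controls, against 25.6% of all 8584 genes tested in that set and 26.1% of the 6313 that have a listed autosomal site. These shares rest on 1 library and were not tested. The gene bol had 335, 189 and 2.98 CPM in the 3 controls, fest had 436, 261 and 2.30 CPM and CG43755 had 196, 152 and 2.47 CPM. Sites in these 3 genes were among those of lowest share, at 0.0966%, 0.224% and 0.138%.

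The RNAi libraries give a measure of the host genes that the choice did not use. The mRNA of the targeted gene did not differ past the threshold in either set. eIF4EHP stood at 26.6, 21.3 and 5.55 CPM in the controls and at 21.4, 14.8 and 18.1 CPM in those labelled as its RNAi. The log2 difference was -0.28 ± 0.36 (SE; limma, adjusted p = 0.72). Nelf-E stood at 38.6, 12.8 and 20.7 CPM with lacZ RNAi and at 33.6, 35.0 and 32.3 CPM in the libraries labelled NELF-E RNAi, a log2 difference of -0.12 ± 0.25 (SE; limma, adjusted p = 0.78). The groups overlapped in both cases, so these mRNAs do not check the labels. CPM of named genes are given as deposited, while log2 differences were fitted on CPM divided by a scaling factor for each library. The direction can thus differ between them, as it does for Nelf-E. The mRNA of Thor did not overlap between the groups in either set. It had 1124, 1228 and 1950 CPM in the controls against 156, 175 and 101 CPM with 4EHP RNAi (limma, adjusted p = 0.13). Thor had 1416, 1270 and 1528 CPM with lacZ RNAi against 112, 144 and 80.1 CPM with NELF-E RNAi (limma, adjusted p = 0.0034). The study reports that both knockdowns lowered Thor or its reporter. The labels were not tested further, and directions below are those between the labelled libraries.

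With NELF-E RNAi, 14 of 186 tested host genes passed an adjusted p of 0.05 in limma fitted over all 8371 genes, 1 higher and 13 lower, against 4.44% of all genes in either direction. That is 0.538% higher and 6.99% lower, where among all genes 1.99% were higher and 2.45% lower, and among the 6217 genes with a listed autosomal site 1.58% and 2.48%. The median log2 difference was -0.44 over the host genes, -0.05 over all genes and -0.06 over genes with a listed site. In CPM as deposited, with no scaling factor, it was 0.30 over the host genes and 0.65 over all genes. The sign of the host median thus depends on the scaling, while its place below that of all genes does not. Its size depended on lacZ RNAi replicate 2, which had the lowest testis markers of that set. Without that library the median was -0.145 over the host genes and -0.00048 over all genes. The groups did not overlap in the lower direction for 55 host genes (29.6%) and in the higher direction for 6 (3.23%), against 17.7% and 8.10% of all genes and 18.7% and 7.25% of genes with a listed site. In bulk tissue, fewer cells of a type and less RNA per cell cannot be told apart, and the testis markers were lower in lacZ RNAi replicates 2 and 3 than in any NELF-E RNAi library.

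CG7763, whose coding site had 26 G reads, had 57.6, 63.0 and 85.2 CPM with lacZ RNAi and 2.83, 9.33 and 5.75 CPM with NELF-E RNAi. Its log2 difference was -4.09 ± 0.51 (SE; limma, adjusted p = 0.0050). CG7384 had 26.9, 33.0 and 32.0 CPM against 2.08, 2.99 and 1.61 CPM, a log2 difference of -3.91 ± 0.43 (adjusted p = 0.0030). CG18563, with a coding site at 1.23%, had 212, 433 and 234 CPM against 44.7, 70.1 and 42.6 CPM, a log2 difference of -3.16 ± 0.61 (adjusted p = 0.028). The 3 genes were lower in every NELF-E RNAi library than in any lacZ RNAi library.

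The gene hng3 had 17.1, 24.4 and 17.6 CPM against 3.55, 3.52 and 3.76 CPM, and midline fasciclin (mfas), a gene of cell adhesion, had 121, 202 and 115 CPM against 36.0, 37.5 and 32.7 CPM. Their log2 differences were -2.80 ± 0.42 and -2.71 ± 0.52. CG18473, with 2 sites in its 5′ UTR, had 11.0, 13.9 and 13.9 CPM against 2.97, 2.73 and 1.46 CPM, a log2 difference of -2.66 ± 0.43 (limma, adjusted p = 0.015). It was the one gene with several sites that passed. aay, which encodes the phosphoserine phosphatase of serine synthesis and held a 3′ UTR site at 0.308%, had 149, 33.5 and 150 CPM against 25.8, 25.1 and 26.3 CPM, a log2 difference of -2.51 ± 0.41. On the list of serine, one-carbon and ATF4 target genes, of which aay is one, 6 of 12 fell in this comparison and none rose.

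The gene that rose, Sodh-2, encodes a sorbitol dehydrogenase. It had 3.05, 2.75 and 6.35 CPM with lacZ RNAi and 46.5, 40.1 and 65.4 CPM with NELF-E RNAi, a log2 difference of 2.70 ± 0.37 (SE; limma, adjusted p = 0.0076). All 14 genes were separated between the groups in the deposited CPM as well, but in a fit of those values 11 of them passed, and aay (limma, adjusted p = 0.15), CG3984 (adjusted p = 0.12) and Lapsyn (adjusted p = 0.055) did not. Of the 14, 4 had their site in a 5′ UTR. The count rested on single libraries. Without lacZ RNAi replicate 1 it was 91 (48.9%), beside 1454 higher and 1978 lower of all 8322 genes. Without lacZ RNAi replicate 2 it was 13 (6.99%), beside 176 higher and 147 lower of 8524. Without lacZ RNAi replicate 3 it was 4 (2.15%), beside 63 higher and 47 lower of 8466. It was 6 (3.23%), 8 (4.30%) and 4 (2.16%) without NELF-E RNAi replicates 1, 2 and 3. Among all genes, 77, 77 and 50 were then higher and 94, 113 and 67 lower, of 8323, 8381 and 8197. CG7763, CG7384 and Sodh-2 passed in all 6 of these fits with a library left out.

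**Figure D5:**
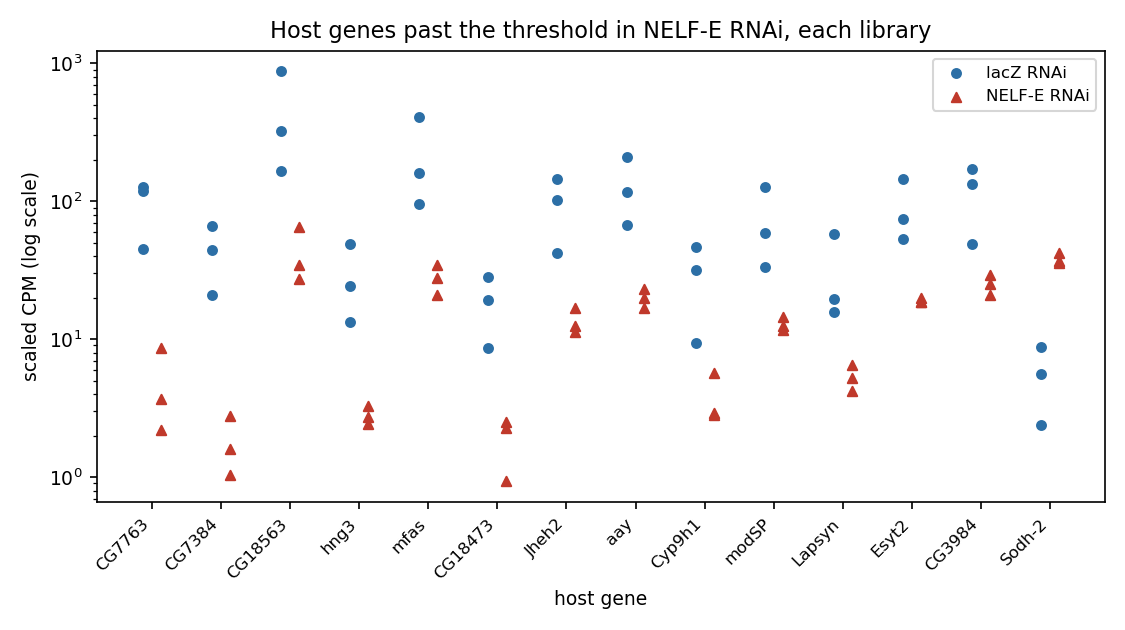
Scaled CPM (deposited CPM divided by a median-of-ratios factor for each library, log scale) of the 14 host genes past the threshold with NELF-E RNAi, with a point for each lacZ RNAi (circles) and NELF-E RNAi (triangles) library. In 13 genes the NELF-E RNAi libraries all lie below the lacZ RNAi libraries, and in Sodh-2 they all lie above.

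With 4EHP RNAi, no host gene of 187 and none of all 8584 genes (0%) passed an adjusted p of 0.05 in limma. At an unadjusted p under 0.05 there were 23 host genes (12.3%) and 848 of all genes (9.88%). edgeR on recovered reads also called no host gene, while DESeq2 called 9, or 4.81%, beside 4.56% of all genes. The host genes had a median log2 difference of -0.25, against 0.15 over all genes and 0.13 over genes with a listed site. In CPM as deposited the median was 0.34 over the host genes and 0.68 over all genes, so its sign depends on the scaling. The groups did not overlap in the lower direction for 30 host genes (16.0%) and in the higher direction for 9 (4.81%), against 11.0% and 7.78% of all genes and 11.7% and 7.02% of genes with a listed site. Gut, muscle and haemocyte markers were higher in every 4EHP RNAi library than in any control, and fat body markers lower. The part of this in the values of the host genes was not tested.

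Much of this turned on control replicate 3, in which the testis markers were low. Without it, 17 of 188 host genes passed (9.04%), 12 higher and 5 lower, and 6.61% of all genes did (5.25% higher and 1.36% lower). The median of the host genes was 0.00 beside -0.01 over all genes. SPE was then higher by 3.00 ± 0.27 on the log2 scale (limma, adjusted p = 0.0034) and Sodh-2 by 4.08 ± 0.38 (adjusted p = 0.0034), and mfas was lower with a log2 difference of -1.88 ± 0.20 (adjusted p = 0.0054).

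For the genes that passed with NELF-E RNAi, the values with 4EHP RNAi come from other libraries and other controls. None of the 14 passed there in limma, which called no gene at all in that set. With DESeq2 7 of them passed, beside 4.56% of all genes, and 13 had the same sign as with NELF-E RNAi. In 11 of them the groups did not overlap, where 7.78% of all genes did not in the higher and 11.0% in the lower direction. The same shares over all genes that passed with NELF-E RNAi were not computed. CG7763 was one that overlapped, with 14.9, 44.1 and 104 CPM in the controls and 13.4, 24.5 and 14.1 CPM with 4EHP RNAi (log2 difference -1.83 ± 1.01, limma, adjusted p = 0.66). mfas had 235, 181 and 170 CPM in the controls and 62.1, 57.1 and 61.4 CPM with 4EHP RNAi (log2 difference -2.25 ± 0.40, limma, adjusted p = 0.13). CG18563 had 398, 372 and 422 CPM against 104, 109 and 79.9 CPM (adjusted p = 0.16). aay had 108, 223 and 327 CPM against 66.9, 47.6 and 26.8 CPM (adjusted p = 0.32). Sodh-2 had 1.41, 2.57 and 4.30 CPM against 33.6, 80.5 and 52.6 CPM (adjusted p = 0.16). In mfas, CG18563, aay and Sodh-2 the groups did not overlap.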

How the data were processed

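The deposited TRIBE table gives, per site, the number of reads with each base in the 3 4EHP-ADAR and 3 mutant-ADAR libraries. FLEXBAR trimming, HISAT2 alignment and JACUSA site calls were done by the authors, who kept sites by comparing the constructs, which favours G reads with 4EHP-ADAR. The authors' score per site was not used. Its columns were mapped to constructs, not to replicates. Positions in the table count from 0 and are given here from 1 in dm6. Gene parts came from an Ensembl annotation in that build, with coding taken before UTR; 97.4% of pairs of site and gene matched by ID. No genome sequence was used here.

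The authors deposited RNA-seq values in CPM, and the submitters' processing notes name STAR, featureCounts, DESeq2 and dm6. Whether counting used the strand is not given in the sources used here, so genes that overlap another are uncertain. The CPM steps gave whole reads for 100% of values. CPM were divided by median-of-ratios factors, log2(CPM + 1) values of genes with a mean of at least 5 CPM were fitted in limma 3.58.1 with Benjamini-Hochberg adjustment, and folds of low genes are understated. DESeq2 1.42.0 (mean of normalised reads above 350) and edgeR 4.0.16 served as alternatives. Named were the 20 host genes with most sites, the 10 sites with the highest share and the 10 with most G reads. Also named were the genes the study turned on, up to 5 per direction past the threshold, and examples from gene lists. The genes bol, fest, CG43755, CG15425, Flad2, Syp, Sgs7, CG3984, Lapsyn and SPE in 4EHP RNAi were added after their values were seen. The sites and lists were chosen with earlier results of these data known. One gene with several sites is not reported here. Scripts were tested on simulated data.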

Additional observations from a re-analysis of the deposited data

Results flagged for a closer look

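Outside the autosomes, 43 sites on the X chromosome met the rest of the choice, out of 11085 that reach the read minimum; the comparisons above do not use them.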

How the results depend on the processing

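The number of sites was 200, and 127 with a share limit of 2%, 64 with at least 2 G reads in each 4EHP-ADAR library, and 251 to 1169 with 1 library left out, the larger values being those without a 4EHP-ADAR library. It was 223 and 142 with a minimum of 10 or 50 reads and 227 with a limit of 10%. The 5′ UTR share, an alternative chosen after seeing the data, was 20.9% to 40.5% with 1 library left out and stayed between 35.4% and 43.2% under the other settings. With NELF-E RNAi, 14 host genes passed, against 38 with DESeq2 (20.2%, beside 12.8% of all genes) and 4 to 91 with 1 library left out. With no filter on low values 0 passed (49 at an unadjusted p under 0.05, limma). Among all 17575 genes, 113 higher and 30 lower passed in that fit. With 4EHP RNAi, 0 passed in limma, against 3 in CPM as deposited, 9 with DESeq2 and 0 to 17 with 1 library left out. The 3 are 1.60% of the host genes, beside 71 higher and 22 lower of all 8584 genes. Deposited CPM moved the median of all genes to 0.68 with 4EHP RNAi and 0.65 with NELF-E RNAi on the log2 scale. The median of the host genes moved to 0.34 and 0.30. A replicate block gave 37 host genes (19.9%) with NELF-E RNAi, beside 313 higher and 709 lower of all 8371 genes, and 0 with 4EHP RNAi. Deviations of same-numbered libraries correlated at 0.30, 0.18 and -0.21 in the first set and at 0.12, 0.01 and -0.17 in the second, so the numbers were not taken to pair the libraries. Few G reads per site, and 80 to 2533 mutant reads, limit what can be told of a single site.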
